A study of Mus musculus with 6 samples.

Results

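Immediate early genes are the genes that a cell transcribes first after a stimulus, without new protein. The members described here, Fos, Fosb, Junb, Arc, Egr1, Egr3, Npas4, Nr4a1, Nr4a3 and Homer1, were chosen by name as well-known genes of this class, and all 10 were among the 24841 genes of the deposited table. Each was followed over 48034 nuclei of mouse striatum by cell class, library and genotype, in neurons as well as in glia and vessels.

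In neurons, calcium entry through glutamate receptors and voltage-gated channels activates kinases that phosphorylate factors already bound at these genes, chiefly CREB at cyclic AMP response elements and the serum response factor with its partners at serum response elements. Most of the products are themselves transcription factors: Fos and Fosb pair with Jun proteins such as Junb to form AP-1, Egr1 and Egr3 are zinc finger proteins, Nr4a1 and Nr4a3 are orphan nuclear receptors, and Npas4 is a basic helix-loop-helix factor induced mainly by calcium in neurons. Arc and Homer1 act at the synapse. Arc promotes the removal of AMPA receptors, and Homer1 encodes both long scaffold proteins that tie metabotropic glutamate receptors to internal calcium stores and a short, activity-induced form that loosens that tie. In the striatum these genes are classic markers of medium spiny neurons driven by dopamine and cortical input.

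The data were single-nucleus RNA profiles of frozen, dissected striatum from 3 mice of the wild type and 3 Celsr3 heterozygotes. Celsr3 encodes an atypical cadherin of neuronal wiring, and each biological replicate gave 1 library. The labels give no allele design, strain, sex, age, litter or stimulus, so the genotype is the only stated difference between the groups. The libraries held 7619 to 8717 nuclei each after 800 likely doublets were left out, and 274 cell barcodes of 48559 occurred in more than 1 library. The values look like depth-corrected, rounded molecule numbers rather than raw counts, although no source used here says how they were made, so "level" below is the mean of these values per nucleus, and levels are not compared between genes because they carry no scaling for length. Celsr3 had a level of 0.148, 0.168 and 0.179 in the wild-type D1 nuclei (replicates 1, 2 and 3, here and below) and at most 0.102 in the heterozygous ones, without overlap (log2 change -0.76 ± 0.13, limma, adjusted p = 0.134).

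Nuclei were sorted into 18 classes by marker genes, from clusters built on variable genes from which the 10 genes and the related genes listed here were left out. Of these, 14 classes had at least 20 nuclei in every library and were tested: 6 of neurons, 7 of glia and vessels, and neuroblast-like nuclei. The medium spiny neurons (MSN), the projection neurons of the striatum, gave 8481 D1 MSN-like nuclei, which carry the dopamine receptor Drd1, 7118 D2 MSN-like nuclei with Drd2, and 1158 eccentric MSN-like nuclei. A further 4009 nuclei were glutamatergic neuron-like, a type of cortex and thalamus rather than of striatum, and their number ranged from 208 to 1543 per library. In 46.1% of endothelial-like, 54.6% of microglia-like and 65.1% of mural-like nuclei, rare genes stood at 2 or 3 and never at 1, against 0.342% of D1 nuclei. The other tested glial classes and neuroblast-like nuclei lay between 0.466% and 15.9%. In nuclei of this kind 1 molecule may stand at more than 1, so levels of single classes are read beside the share of nuclei above 0. Whether the shares are free of this scaling was not tested, and those of Homer1 below may not be. The tests of neuronal against glial and vascular classes, for members and related lists, use levels only. Random thinning of the deposited values does not even out such a difference, and thinned shares are therefore compared between D1 and D2 nuclei only.

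RefSeq start sites (GRCm38.p6) were at hand for 7 of the 10 genes, with 2 for Homer1, and the 250 bases before each were searched on both strands for TGACG, the core of the cyclic AMP response element, which was found in 7 of 8 windows against 17.8% of all 32851 windows. The counts were 4 for Nr4a1, 4 for Nr4a3, 3 for the first Homer1 start, 2 for Fos, 2 for Npas4, and 1 each for Fosb and Junb, and 3 or more occurred in 0.688% of all windows. The full palindrome TGACGTCA, which contains TGACG on both strands, was in 0 of 8 against 1.55%, and the serum response element in 0 of 8 against 1.47%. Elements farther than 250 bases from a start were not searched, and Arc, Egr1 and Egr3 had no window. These counts therefore do not say that the genes lack an element. TATAAA was in 1 of 8, that of Fos, against 12.4%. Shown are the windows of Fos, Npas4, Nr4a1 and Nr4a3, the first 2 as the standard markers of neuronal activity and the last 2 for their 4 matches. Capitals mark TGACG or its complement CGTCA, and TATAAA in Fos:
Fos, chr12:85473640-85473889, plus strand: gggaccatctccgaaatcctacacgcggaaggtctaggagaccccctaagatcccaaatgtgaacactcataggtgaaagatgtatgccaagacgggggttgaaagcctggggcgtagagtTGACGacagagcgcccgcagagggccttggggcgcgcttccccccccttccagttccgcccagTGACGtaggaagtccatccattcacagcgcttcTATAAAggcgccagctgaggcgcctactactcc
Npas4, chr19:4989972-4990221, minus strand: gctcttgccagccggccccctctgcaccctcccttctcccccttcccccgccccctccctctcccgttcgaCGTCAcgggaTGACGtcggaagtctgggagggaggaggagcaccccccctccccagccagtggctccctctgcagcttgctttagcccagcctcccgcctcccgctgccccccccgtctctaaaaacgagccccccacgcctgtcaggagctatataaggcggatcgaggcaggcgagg
Nr4a1, chr15:101266596-101266845, plus strand: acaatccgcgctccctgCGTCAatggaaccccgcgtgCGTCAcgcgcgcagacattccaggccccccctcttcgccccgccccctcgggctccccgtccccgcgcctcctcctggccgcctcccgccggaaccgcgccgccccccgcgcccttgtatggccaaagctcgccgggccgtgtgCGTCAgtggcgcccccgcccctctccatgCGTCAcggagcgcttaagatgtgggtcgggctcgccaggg
Nr4a3, chr4:48045055-48045304, plus strand: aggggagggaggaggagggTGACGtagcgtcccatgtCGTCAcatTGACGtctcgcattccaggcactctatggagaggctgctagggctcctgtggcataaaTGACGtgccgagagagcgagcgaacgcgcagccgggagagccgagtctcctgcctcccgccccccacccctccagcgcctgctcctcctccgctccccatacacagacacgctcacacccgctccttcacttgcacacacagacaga
In GENCODE M21 on GRCm38, Homer1 was by far the longest of the 10 genes, at 105.5 kb, against 3.38 kb for Fos and 3.49 kb for Arc. Homer1 overlaps 2 unconfirmed gene models on the same strand, Gm47075 and Gm47088. Junb (chr8:84974484-84978718, minus strand) overlaps Prdx2, a peroxiredoxin gene on the opposite strand. How strand was used in counting is not given in the sources used here, nor how reads in overlapping genes were assigned, so Junb and Homer1 are read with that reservation.

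Immediate early genes were mostly higher in neurons. With each class weighted equally, 8 of the 9 genes that passed the filter on low values were higher in the 6 neuronal than in the 7 glial and vascular classes (limma, adjusted p below 0.05), and none was lower. This has to be read against the background: 86.7% of all 14579 genes tested differed in this comparison, 64.2% of those tested being higher and 22.5% lower in neurons. The members' median difference was 0.85 on the log2 scale, against 0.51 over all genes. The comparison rests on levels and not on shares of nuclei above 0. Its 7 glial and vascular classes include endothelial-like, microglia-like and mural-like nuclei, where 1 molecule may stand at more than 1. The part of this in the differences was not tested. Npas4 had a difference of 2.24 ± 0.16 (SE, adjusted p = 1.72e-09), Nr4a1 of 1.96 ± 0.09 (adjusted p = 1.5e-11) and Nr4a3 of 1.41 ± 0.18 (adjusted p = 2.61e-06). The other 5 called genes lay between 0.92 for Egr3 and 0.32 for Egr1. Fos differed by 0.35 ± 0.22 and did not pass (adjusted p = 0.145), and Fosb was too low to be tested. Size factors were then used in place of the deposited scale, with a separate factor for each library in each of the compared groups of nuclei. The median over all genes moved from 0.51 to 0.24 and the calls from 9367 higher and 3279 lower to 7424 and 4524. Then 6 of 9 members were called, since Junb (0.12, adjusted p = 0.434) and Egr1 (0.04, adjusted p = 0.716) were not. The call of Junb was also lost without heterozygous replicate 2 (0.33, adjusted p = 0.0567) or 3 (0.25, adjusted p = 0.085). With each library left out, the Fos difference ranged from 0.11 to 0.51, and Fos was called without wild-type replicate 1 (0.51, adjusted p = 0.0433).

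Npas4, the calcium-induced factor, was rare outside neurons. It was above 0 in 11.1% of D2, 10.0% of D1, 9.06% of glutamatergic and 6.21% of eccentric MSN-like nuclei, but in 0.70% of oligodendrocyte-like and 0.68% of astrocyte-like nuclei. D1 nuclei had a median of 3389 detected genes, oligodendrocyte-like nuclei one of 1876. Cholinergic interneuron-like nuclei, with as many genes as the MSN (median 3758.5), were at 3.46%.

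**Figure D1:**
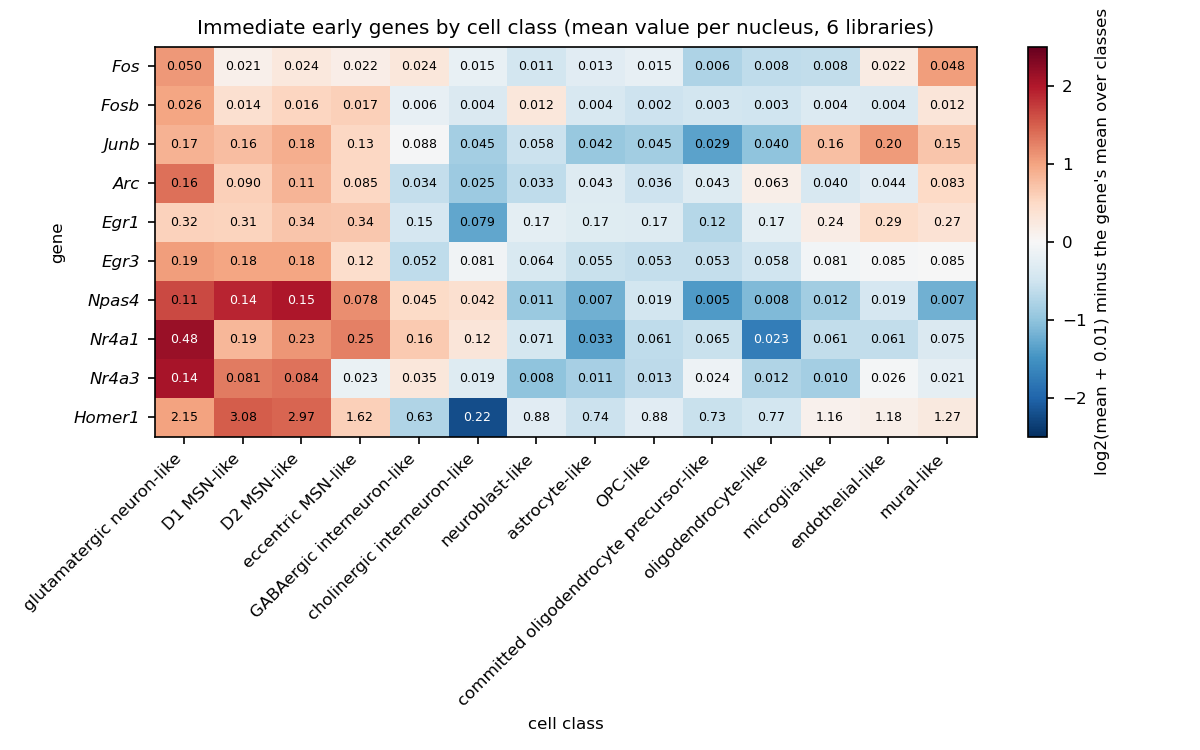
Mean value per nucleus (printed in each cell, mean of 6 libraries) of the 10 genes (rows) in the 14 tested classes (columns); the color is the log2 level relative to the gene's own mean over classes. Glutamatergic neuron-like nuclei lead in 6 genes, Homer1 in D1 nuclei reaches 3.08, and Junb is highest in endothelial-like nuclei at 0.199.

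Glutamatergic neuron-like nuclei held the highest level of 6 of the 10 genes: Fos, Fosb, Arc, Egr3, Nr4a1 and Nr4a3. The Nr4a1 level there was 0.368, 0.587 and 0.606 in the wild-type and 0.338, 0.474 and 0.510 in the heterozygous libraries. The next class, eccentric MSN-like, had a mean of 0.252 ± 0.105 (SD, n = 6 libraries), and the glutamatergic nuclei were above it in 6 of 6 libraries. Nr4a3 was at 0.143 ± 0.066 in glutamatergic and 0.084 ± 0.063 in D2 nuclei, again with the same order in 6 of 6 libraries. Fos, the founding member of the family, was at 0.050 ± 0.028 in glutamatergic nuclei, and this was above the mural-like class that followed it in only 3 of 6 libraries. Over the 10 genes, 12 of 130 pairs of neighbouring classes had the same order in 6 of 6 libraries, each with p = 0.03125, the smallest that the exact two-sided sign-flip test over 6 libraries can give. With a floor this high, adjustment over 130 pairs (smallest adjusted p = 0.339) can hardly be passed, so nothing is read from it on which neighbours differ.

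Junb levels in endothelial-like nuclei overlapped those in projection neurons. Junb, the AP-1 subunit, had its highest mean level in endothelial-like nuclei, with 0.201, 0.208 and 0.217 in the wild-type and 0.262, 0.164 and 0.144 in the heterozygous libraries. D2 nuclei came next, at 0.176 ± 0.052 (SD, n = 6), and were above endothelial-like nuclei in heterozygous replicates 2 and 3 (0.200 and 0.251), so the order held in only 4 of 6 libraries. D1 nuclei had 0.161 ± 0.059 and microglia-like nuclei 0.159 ± 0.029, and all these ranges overlap. As a share, Junb was above 0 in 12.8% of endothelial-like nuclei and also in 12.8% of D1 nuclei. Microglia-like nuclei were at 8.72%, astrocyte-like nuclei at 3.56% and oligodendrocyte-like nuclei at 3.09%. Prdx2, the gene that overlaps Junb, was also higher in endothelial-like nuclei (0.367 to 0.779 over the 6 libraries) than in D1 nuclei (0.229 to 0.365), and its part in the Junb values was not tested.

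Within the endothelial-like class, Junb differed between the 2 clusters. The 312 nuclei of the cluster led by Cxcl12, Rgs5 and Ly6c1 had a Junb level of 0.350 ± 0.049, with 0.264 in the lowest library, while the 666 nuclei of the cluster led by Mecom, Slco1a4 and Flt1 had 0.132 ± 0.041, with 0.205 in the highest. The shares of nuclei above 0 were 25.2% ± 5.27 and 7.001% ± 2.12. Neither the levels nor the shares overlapped between the clusters, which were singled out after their values were seen. The share of all genes without overlap between these clusters was not counted, so this has no background. The first cluster also passed for 7 mural markers beside 10 endothelial ones and had a median of 2476 genes per nucleus against 1806. Rare genes stood at 2 or 3 and never at 1 in 5.13% of its nuclei, against 65.3% of the second. The part of these in the Junb difference was not tested. Egr1 had levels of 0.211 ± 0.086 and 0.327 ± 0.086 in these clusters, with ranges that overlap, and shares above 0 of 16.1% and 15.3%.

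Over the classes, the Egr1 level ranged from 0.345 ± 0.067 in D2 to 0.079 ± 0.037 in cholinergic interneuron-like nuclei. Endothelial-like nuclei, at 0.293 ± 0.066, overlapped D1 nuclei, at 0.313 ± 0.064, in level, but the shares above 0 were 15.8% and 25.9%, at medians of 1902 and 3389 genes per nucleus. Mural-like (12.1%), microglia-like (12.2%), astrocyte-like (12.4%) and oligodendrocyte-like nuclei (12.3%) had nearly the same share, and their levels ranged from 0.168 ± 0.043 in astrocyte-like to 0.272 ± 0.098 in mural-like nuclei. The part of free RNA in these shares was not tested.

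Arc, the synaptic regulator, was also above 0 in glia. Oligodendrocyte-like nuclei had an Arc level of 0.0314, 0.0807 and 0.0975 in the wild-type and 0.0533, 0.0464 and 0.0680 in the heterozygous libraries. GABAergic interneuron-like nuclei had 0.034 ± 0.020, with a lower level than oligodendrocyte-like nuclei in each of the 6 libraries. The shares above 0 were 5.13% in oligodendrocyte-like, 3.30% in GABAergic interneuron-like and 7.66% in D1 nuclei. In D1 nuclei the Arc level was 0.0267, 0.120 and 0.0813, then 0.0596, 0.114 and 0.139. Wild-type replicate 1 was lowest in both classes, and the part of free RNA in the oligodendrocyte value was not tested.

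Homer1, the scaffold gene, was above 0 in most nuclei of several classes. It was above 0 in 92.1% of D1, 91.4% of D2 and 76.6% of glutamatergic nuclei, but also in 83.4% of mural-like, 74.5% of microglia-like and 43.1% of oligodendrocyte-like nuclei. Its level was 3.08 ± 0.72 in D1 and 2.97 ± 0.56 in D2 nuclei, against 1.27 ± 0.07 in mural-like and 0.77 ± 0.07 in oligodendrocyte-like nuclei. Within the endothelial-like class, Homer1 was above 0 in 86.4% of nuclei of the cluster led by Mecom and in 29.7% of the cluster led by Cxcl12, and rare genes stood at 2 or 3 and never at 1 in 65.3% and 5.13% of these nuclei. The part of free RNA and of this scaling in the glial and vascular values of Homer1 was not tested. Cholinergic interneuron-like nuclei were lowest of the tested classes, at 0.222 ± 0.091 and 19.4% of nuclei, below GABAergic interneuron-like nuclei (0.630 ± 0.067) in 6 of 6 libraries. Before doublets were left out, this class joined a cluster of 197 nuclei and another of 24. Their medians were 3817 and 1760.5 genes per nucleus. The part of the smaller cluster in the Homer1 values was not tested.

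Genes whose pattern over the 14 classes was most like that of a member are given as a description, since the classes share libraries and depth. Npas4 was most like Rab15 (Pearson r = 0.987), Dmtn (0.985) and Gm38413 (0.981), and Arc most like Synpo (0.910), the actin-binding synaptopodin, R3hdm1 (0.898) and Itpka (0.874), a kinase of dendritic spines. Homer1 was most like Cnksr2 (0.951), Ano3 (0.946) and Lmo7 (0.944), and Egr1 most like Lmo7 (0.940), Cnksr2 (0.925) and Atp2b1 (0.915). Junb was most like Gnl1 (0.962), Srsf9 (0.920) and Adgrl2 (0.913), Egr3 like Brms1 (0.953), Rin1 (0.951) and R3hdm4 (0.947), and Nr4a1 like Pgap3 (0.957) and B130046B21Rik (0.945). Fos was most like Il34 (0.896), Lrrc23 (0.882) and Spag6 (0.871), and Fosb like Sla2 (0.918), Syt5 (0.888) and Grm8 (0.875). Nr4a3 was most like Gm15997 (0.943), Ephx4 (0.939) and Krt20 (0.937).

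Other genes of the response did not share 1 pattern. Of 15 tested members of a list of other immediate early transcription factors (20 genes), 7 were higher and 6 lower in neurons, beside 64.2% higher and 22.5% lower over all genes tested, the lower ones including Klf2 (-3.97 ± 0.16) and Klf4 (-2.53 ± 0.15), factors of endothelium, and Jun (-1.32 ± 0.10). Of 17 tested effector and feedback genes, 9 were higher, such as the phosphatase Dusp14 (1.79 ± 0.13), and 3 lower. Of 14 tested late response genes, a list with genes of secreted and synaptic proteins among others, 11 were higher and 0 lower, led by Tacr1 (6.52 ± 0.15) and Pcsk1 (3.13 ± 0.16). Tacr1 was also among the 10 leading genes of a cholinergic and of a GABAergic interneuron-like cluster, classes that were weighted here like the MSN classes. Of 22 upstream regulators 13 were higher and 6 lower, of 10 partners of Homer1 9 were higher and 1 lower, led by Shank2 (2.40 ± 0.06) and Homer2 (2.06 ± 0.09), and of 9 tested heat shock and tissue handling genes 0 were higher and 6 lower. The median differences of these lists were 0.14, 0.35, 1.55, 0.40, 1.27 and -0.90, in that order, beside 0.51 over all genes.

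D1 and D2 medium spiny neurons differed modestly. Of 9 tested members, 3 differed in level, and all were higher in D2: Nr4a1, Arc and Egr1. The background was 34.6% of 13122 genes called, 26.1% higher in D1 and 8.42% higher in D2. Nr4a1 was lower in D1 by -0.37 ± 0.08 (log2, SE, adjusted p = 6.81e-04), Arc by -0.28 ± 0.07 (adjusted p = 0.00273) and Egr1 by -0.14 ± 0.04 (adjusted p = 0.0112). For Arc the D2 level was 0.0414, 0.133 and 0.0935 in the wild-type and 0.0860, 0.131 and 0.169 in the heterozygous libraries, above the D1 level of the same library in 6 of 6, as it was for Nr4a1. Without heterozygous replicate 3, Egr1 no longer passed (-0.12, adjusted p = 0.0544) and Junb did (-0.19, adjusted p = 0.0307), so 3 members were again called. With size factors, the calls over all genes were 2104 higher in D1 and 1768 higher in D2, and Junb joined the 3 members (-0.19, adjusted p = 0.0244). The other 6 had no call, with Junb at -0.14 ± 0.06 (adjusted p = 0.0828), Fos at -0.17 ± 0.12, Npas4 at -0.11 ± 0.08, Homer1 at 0.04 ± 0.02, and Egr3 and Nr4a3 within 0.01 of 0.

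In the related lists, to be read beside the 26.1% of all genes higher in D1 and 8.42% higher in D2, the classes differed in 1 of 12 other transcription factors, Fosl2 (-0.37 ± 0.08, higher in D2), in 6 of 13 effectors (2 higher in D1, 4 in D2), in 4 of 12 late response genes (2 and 2), in 8 of 22 upstream regulators (5 and 3), in 6 of 9 Homer1 partners (3 and 3) and in 3 of 8 heat shock genes (0 and 3). Sgk1, a kinase, was higher in D1 (0.30 ± 0.03), and the regulator of G protein signalling Rgs2 higher in D2 (-0.21 ± 0.05). Homer2, a relative of Homer1, was higher in D2 (-0.90 ± 0.10). The medians of the 6 lists lay between -0.08 and 0.07, beside 0.07 over all genes.

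**Figure D2:**
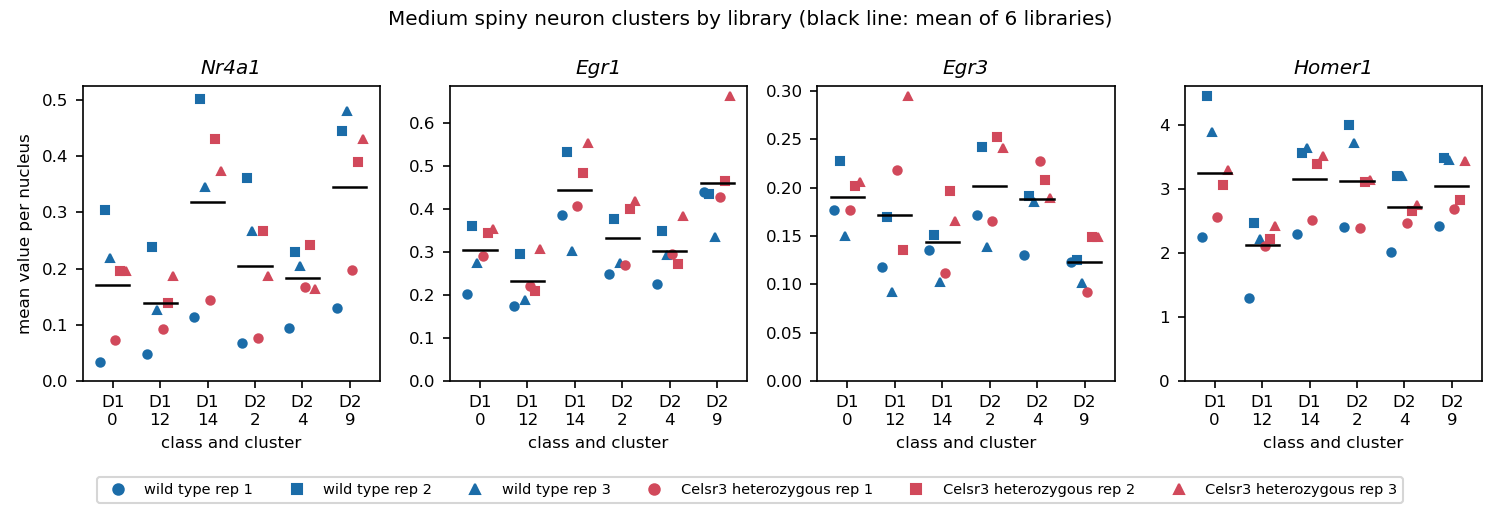
Mean value per nucleus (y axis) of Nr4a1, Egr1, Egr3 and Homer1 in the 3 clusters of each MSN class (x axis), with 1 point per library and a line at the mean of 6. Clusters 14 and 9 have the highest Nr4a1 and Egr1 of their class in every library, and lower Egr3 than clusters 0, 2 and 4.

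Each MSN class also held clusters that differed in these genes. Cluster 14 of the D1 class (1212 nuclei) and cluster 9 of the D2 class (1402 nuclei) shared 5 of their 10 leading genes, Gm16083, Zp3r, Gm49906, 9230009I02Rik and Myo3b. Nr4a1 was at 0.114, 0.502 and 0.346 in the wild-type and 0.144, 0.431 and 0.374 in the heterozygous libraries of cluster 14, against 0.0342, 0.304 and 0.219, then 0.0728, 0.195 and 0.195, in cluster 0, the largest D1 cluster. The difference was 0.96 ± 0.31 (log2, SD over 6 libraries), higher in 6 of 6. In the D2 class, cluster 9 exceeded cluster 2 by 0.82 ± 0.37 and cluster 4 by 0.79 ± 0.44, also in 6 of 6.

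Egr1 followed Nr4a1. It was higher in cluster 14 than in cluster 0 by 0.53 ± 0.25 and higher in cluster 9 than in cluster 2 by 0.46 ± 0.26, each in 6 of 6 libraries. Egr3, its close relative, had the opposite order, with -0.40 ± 0.21 and -0.65 ± 0.19, lower in 6 of 6. Clusters of the same class are compared here as a description, singled out after their values were seen, and the 10 genes played no part in the clustering. How many of all genes kept 1 order in 6 of 6 libraries between these clusters was not counted, so the orders have no background. Other members kept 1 order too. Nr4a3 was higher in cluster 14 than in cluster 0 in 6 of 6 libraries (0.55 ± 0.38), and Fosb was higher in cluster 9 than in cluster 2 in 0 of 6 (-0.67 ± 0.47). Cluster 12 of the D1 class, led by the dopamine receptor Drd3 and by Dlk1 and Pdyn, had less Homer1 than cluster 0 (-0.60 ± 0.24), less Npas4 (-0.60 ± 0.55) and less Egr1 (-0.38 ± 0.19), but more Nr4a3 (0.62 ± 0.38), each in 6 of 6 libraries.

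In single nuclei these genes tended to appear together. Nuclei with 3 or more of the 9 genes other than Homer1 above 0 made up 2.58%, 14.7% and 5.99% of D1 nuclei in the wild-type and 6.22%, 12.4% and 14.2% in the heterozygous libraries, 840 nuclei in all. In D2 nuclei the shares were 3.61%, 15.8% and 8.31%, then 8.69%, 15.4% and 15.2%, 834 nuclei in all. Wild-type replicate 1 was lowest in both classes, and the range of the wild-type libraries covered that of the heterozygous libraries.

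By class, the share averaged 15.5% ± 6.78 (SD, n = 6) in glutamatergic, 11.2% ± 5.04 in D2, 9.35% ± 5.07 in D1, 7.42% ± 3.79 in eccentric MSN and 2.12% ± 1.26 in GABAergic interneurons, as named here. Endothelial-like nuclei had 1.33% ± 1.45 and cholinergic interneuron-like nuclei 0.97% ± 1.53. Oligodendrocyte-like nuclei, with far fewer genes per nucleus, had 0.32%, astrocyte-like nuclei 0.34% and microglia-like nuclei 0.37%. Thinned to a total of 4500, the shares were 5.91% in D2 and 5.01% in D1 nuclei. All 9 genes were above 0 in 7 D1 nuclei and in 1 D2 nucleus.

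D2 nuclei exceeded D1 nuclei by 1.82 percentage points ± 0.88 (SD), in 6 of 6 libraries (exact two-sided sign-flip permutation test, p = 0.03125, the smallest possible). With every nucleus thinned to a total of 4500 the difference was 0.90 points, in 5 of 6 libraries (exact p = 0.1875), and for nuclei with 4 or more genes it was 0.61 points, in 3 of 6 libraries (exact p = 0.4375). For nuclei with 2 or more genes it was 2.94 points, in 6 of 6 libraries (exact p = 0.03125). Between genotypes the D1 share was 7.75% ± 6.24 in the wild type and 10.96% ± 4.19 in the heterozygotes (SD, n = 3 each, exact two-sided permutation p = 0.6), and the D2 share 9.25% ± 6.16 and 13.1% ± 3.81 (exact permutation p = 0.6). The size of these differences moved with single libraries and with the number of genes asked for. The difference of 3.20 points in D1 was 0.62 without wild-type replicate 1, 1.58 without heterozygous replicate 3, 5.57 without heterozygous replicate 1 and 6.67 without wild-type replicate 2, and that of 3.84 points in D2 was 1.02, 2.81, 6.04 and 7.13. For 2 or more genes the differences were 0.38 and 1.89 points in D1 and D2 (exact permutation p = 0.9 and 0.7), and for 4 or more genes 2.37 and 3.60 points (exact permutation p = 0.3 and 0.2). With 3 libraries a group, the exact test cannot go below p = 0.1.

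**Figure D3:**
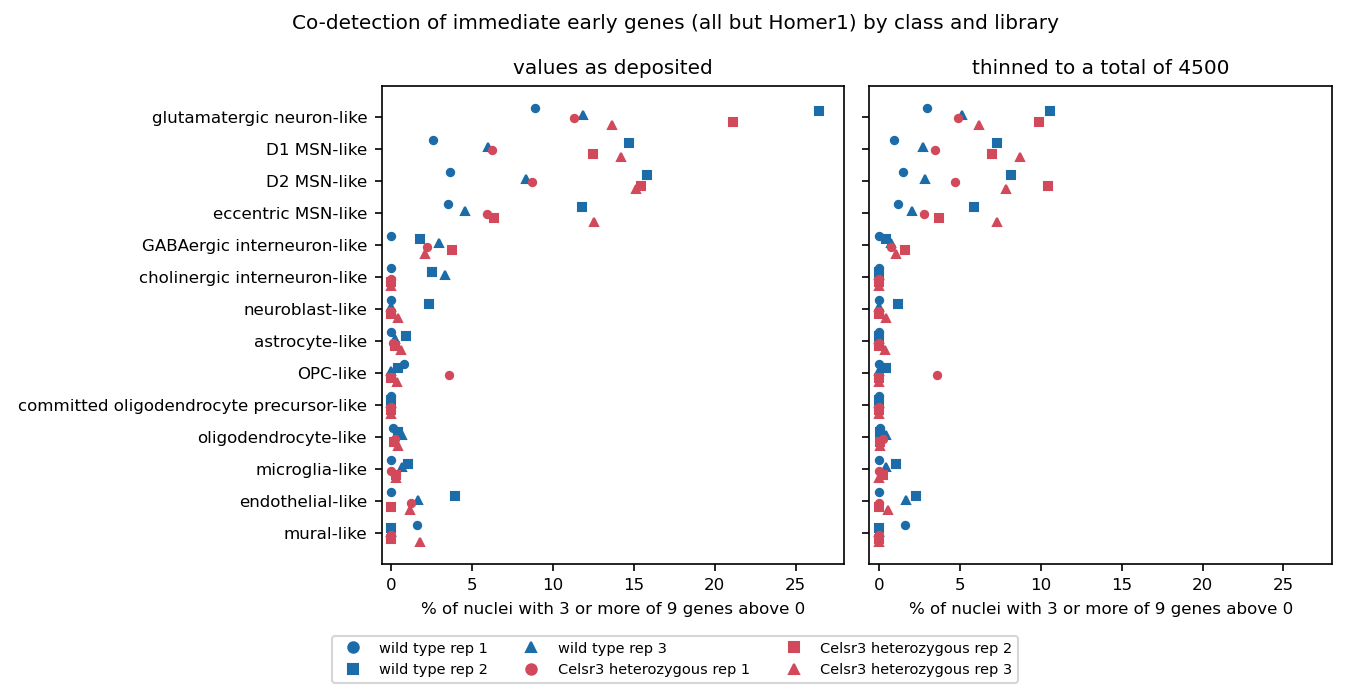
Percent of nuclei with 3 or more of 9 genes above 0 (x axis) in each class (y axis), 1 point per library, for the deposited values on the left and for nuclei thinned to a total of 4500 on the right. Projection neurons reach 26.4% in 1 glutamatergic library, and the glial classes plotted stay at or below 3.57%, which is 1 of 28 OPC-like nuclei. Endothelial-like nuclei reach 3.93% in wild-type replicate 2, which is 7 of 178. The thinned values do not even out depth between neurons and glia.

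All 45 pairs of genes were seen together more often than their frequencies within library and bin of genes per nucleus give, in D1 and in D2 nuclei. Over the 36 pairs without Homer1, the median ratio of observed to expected nuclei was 2.20 in D1 and 1.98 in D2, from 1.23 to 6.78 and from 1.35 to 6.58. The highest belonged to Fos with Fosb, 16 nuclei where 2.36 were expected in D1 and 16 where 2.43 were expected in D2, which rests on few nuclei. Fosb with Nr4a3 gave 36 nuclei against 7.13 in D1. The ratio was above 1 in 6 of 6 libraries for 16 of these pairs in D1 and for 23 in D2. Homer1 pairs lay between 1.01 and 1.05 in both classes, with nearly every MSN nucleus above 0 for Homer1. Pairs of other genes were not counted, so these ratios have no background, and expected numbers were not split by cluster. The part of the bins and of the clusters in the ratios was not tested.

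The level of Homer1, which took no part in choosing these nuclei, did differ. In D1 nuclei with 3 or more of the 9 genes it was 4.68, against 2.70 in nuclei with 0 of the 9, at matched numbers of genes per nucleus, a log2 ratio of 0.80 that was above 0 in 6 of 6 libraries, as were 6.02% of 13663 other genes with a mean of at least 0.02. In D2 nuclei it was 4.18 against 2.595, a ratio of 0.67, also in 6 of 6, beside 5.19% of 13440 other genes. The mean of at least 0.02 was asked of the nuclei with 3 or more of the 9 genes. The nuclei were not matched by cluster, and D1 clusters differed in Homer1 and in several of the 9 genes. The part of the clusters in this ratio and in those that follow was not tested. The table does not separate the short from the long forms of Homer1.

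**Figure D4:**
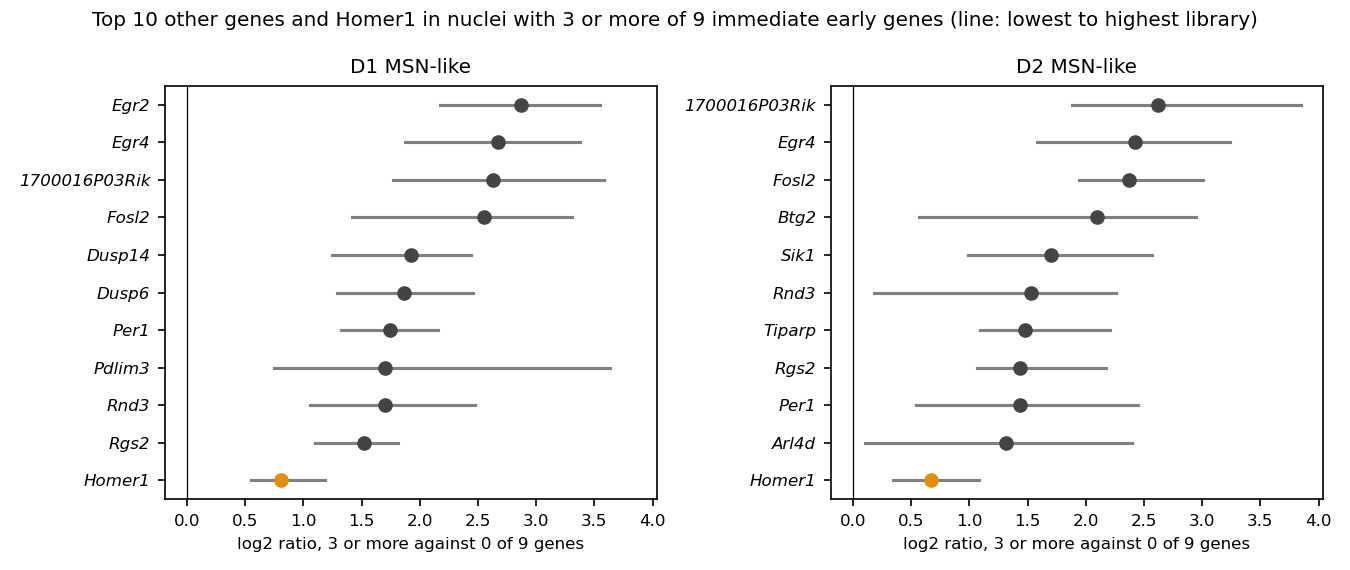
Log2 ratio of the mean value (x axis) between nuclei with 3 or more and nuclei with 0 of 9 immediate early genes above 0, for the 10 highest other genes and for Homer1 (orange), in D1 (left) and D2 (right) nuclei; lines span the lowest to the highest library. Homer1 lies at 0.80 and 0.67, below the 10 leading genes.

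Nuclei with several of these genes also held more of their relatives. In D1 nuclei, the 10 other genes with the highest ratio were Egr2 (2.87, from 0.0071 to 0.115) and Egr4 (2.67, from 0.0346 to 0.284), both Egr family factors, 1700016P03Rik (2.63), Fosl2 (2.55), an AP-1 subunit, the phosphatases Dusp14 (1.93) and Dusp6 (1.86), the clock gene Per1 (1.74), Pdlim3 (1.705), Rnd3 (1.699) and Rgs2 (1.52). In D2 nuclei they were 1700016P03Rik (2.62, from 0.109 to 0.730), Egr4 (2.42), Fosl2 (2.37), Btg2 (2.09), the salt-inducible kinase Sik1 (1.704), Rnd3 (1.53), Tiparp (1.48), Rgs2 (1.43), Per1 (1.43) and Arl4d (1.31). Each was higher in 6 of 6 libraries by the rule that chose it. The gene 1700016P03Rik is the host transcript of the activity-regulated microRNAs miR-212 and miR-132.

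By list, 12 of 17 effector and feedback genes with a mean of at least 0.02 were higher in 6 of 6 libraries in D1 nuclei and 8 of 15 in D2. Over all genes with such a mean the shares were 6.02% and 5.19%, and 6.95% and 4.98% were lower in 6 of 6. The counts were 6 of 12 and 6 of 13 for other transcription factors, and 6 of 12 and 5 of 14 for late response genes, among them the secreted Vgf (1.17 in D1, 0.73 in D2) and Scg2 (0.81 and 0.79). Upstream regulators gave 1 of 22 in each class, and 5 of 22 were lower in 6 of 6 libraries in D1, such as Mef2c (-0.39) and Camk2a (-0.20), and 1 of 22 in D2. Homer1 partners gave 2 of 9 higher and 2 of 9 lower in D1, and 1 and 0 of 9 in D2. Heat shock and tissue handling genes gave 1 of 8 and 2 of 8 higher. Of the effectors 1 was lower in each class, and of transcription factors, late response and heat shock genes 0 were lower in either. The medians were 0.92 and 0.84 for effectors, 0.63 and 0.57 for transcription factors, 0.67 and 0.43 for late response genes, -0.03 and -0.06 for regulators, and -0.02 and 0.0019 for Homer1 partners, beside -0.02 in both classes over all genes. The heat shock and tissue handling genes had medians of 0.31 and 0.31, so they too were higher in these nuclei by their median, and their part in the result was not tested.

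No immediate early gene was called changed by Celsr3 genotype. In all nuclei 0 of 9 tested members passed, in D1 nuclei 0 of 9 and in D2 nuclei 0 of 8 (limma, adjusted p, 3 libraries per group). The share of all genes called was 0.0%, 0.0223% and 0.0157%. In each of the other 11 classes in which members could be tested the count was also 0, of 8 in glutamatergic nuclei, where 0.00796% of genes were called, of 6 in astrocyte-like and 6 in oligodendrocyte-like nuclei, of 4 in microglia-like nuclei and of at most 3 elsewhere, where 0.0% were called. The difference of the genotype effect between D1 and D2 was called for 0 of 9 members, with 0.0229% of genes called.

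Junb was the gene nearest to a genotype difference. In D2 nuclei its level was 0.109, 0.152 and 0.139 in the wild-type and 0.206, 0.200 and 0.251 in the heterozygous libraries. In D1 nuclei it was 0.106, 0.151 and 0.117, then 0.161, 0.157 and 0.273. Every heterozygous library was above every wild-type library in both classes, and also in all nuclei (0.0702, 0.112 and 0.106 against 0.134, 0.115 and 0.136).

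The change was 0.68 ± 0.14 in D2 (log2, SE, limma, adjusted p = 0.171), 0.59 ± 0.21 in D1 (adjusted p = 0.421) and 0.40 ± 0.17 in all nuclei (adjusted p = 0.502). The D1 change was 0.34 without heterozygous replicate 3 and that in all nuclei 0.21 without wild-type replicate 1, while the D2 change lay between 0.56 and 0.78 with each library left out. Junb was the 1 tested member whose groups did not overlap, while 9.12% of all genes in D2, 11.5% in D1 and 14.8% in all nuclei had every heterozygous library higher. No tested member had every heterozygous library lower, against 5.52%, 5.02% and 4.42% of all genes. Fosb, left untested for its low level, did not overlap either. It was at 0.00461, 0.0122 and 0.00739, then 0.0141, 0.0196 and 0.0239, in D1. In D2 it was at 0.00425, 0.0128 and 0.0147, then 0.0163, 0.0299 and 0.0174. In D1 and D2, 1.24% and 1.34% of nuclei were above 0. The shares of all genes given above cover only genes that passed the filter, so they are no background for Fosb. Nothing is read from its order. With limma's array weights the D2 change of Junb was called (0.58, adjusted p = 0.0449), in a fit that called 175 genes in all. Prdx2, which overlaps Junb, changed by 0.23 ± 0.18 in D2 and 0.16 ± 0.15 in D1 (adjusted p = 0.763 and 0.744), with its highest level in wild-type replicate 1 (0.402 in D2), where Junb was lowest. In endothelial-like nuclei, where its mean level was highest, the Junb change was -0.17 ± 0.29 (adjusted p = 0.976).

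Npas4 came next in D2 nuclei, with 0.0638, 0.189 and 0.0658 in the wild-type and 0.122, 0.269 and 0.190 in the heterozygous libraries, ranges that overlap. The change was 0.91 ± 0.38 in D2 (adjusted p = 0.553) and 0.85 ± 0.40 in D1 (adjusted p = 0.522). It was largest without wild-type replicate 2, at 1.38 and 1.32, and smallest at 0.65 in D2 without heterozygous replicate 2 and at 0.46 in D1 without wild-type replicate 1. Fos in D1 was at 0.00553, 0.0211 and 0.0156, then 0.0107, 0.0366 and 0.0371, a change of 0.63 ± 0.36 (adjusted p = 0.588), or 0.34 without wild-type replicate 1 and 1.02 without heterozygous replicate 1. Arc changed by 0.52 ± 0.44 and 0.56 ± 0.35 in D1 and D2, Egr1 by 0.24 ± 0.18 and 0.27 ± 0.16, Egr3 by 0.17 ± 0.15 and 0.23 ± 0.16, Nr4a3 by 0.28 ± 0.58 and 0.17 ± 0.60, Nr4a1 by 0.06 ± 0.60 and -0.005 ± 0.43, and Homer1 by -0.15 ± 0.21 and -0.14 ± 0.17. Without wild-type replicate 1 the D1 and D2 changes were -0.0029 and 0.14 for Arc and 0.07 and 0.17 for Egr1, and without wild-type replicate 2 they were 0.91 and 0.88 for Arc and 0.45 and 0.41 for Egr1. Egr3 moved to 0.03 and 0.15 without wild-type replicate 3 and to 0.32 and 0.39 without wild-type replicate 2. Fosb stayed below the filter in D1 and D2.

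Wild-type replicate 1 stood apart in these genes. It had the lowest level of 8 of 9 tested members in D1, of 7 of 8 in D2 and of 8 of 9 in all nuclei, while it was lowest for 21.7%, 20.6% and 34.4% of all genes. The members' median change was 0.28 in D1, with 8 of 9 above 0, and 0.25 in D2, with 6 of 8 above 0, beside 0.06 and 0.04 over all genes. In all nuclei it was 0.08, and -0.11 without wild-type replicate 1. In D1 it was 0.07 without that library and 0.65 without wild-type replicate 2. In D2 the members' median ranged from 0.15 to 0.65 with each library left out. The median number of genes per D1 nucleus in wild-type replicate 1, 3398, lay within the 3274.5 to 3497.5 of the other libraries. Over all nuclei the 2434 of that library was the lowest, against 2830 to 3004. Without it, 216 genes were called by genotype in D1 and 119 in D2, in place of 3 and 2, with 0 members among them in either class.

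**Figure D5:**
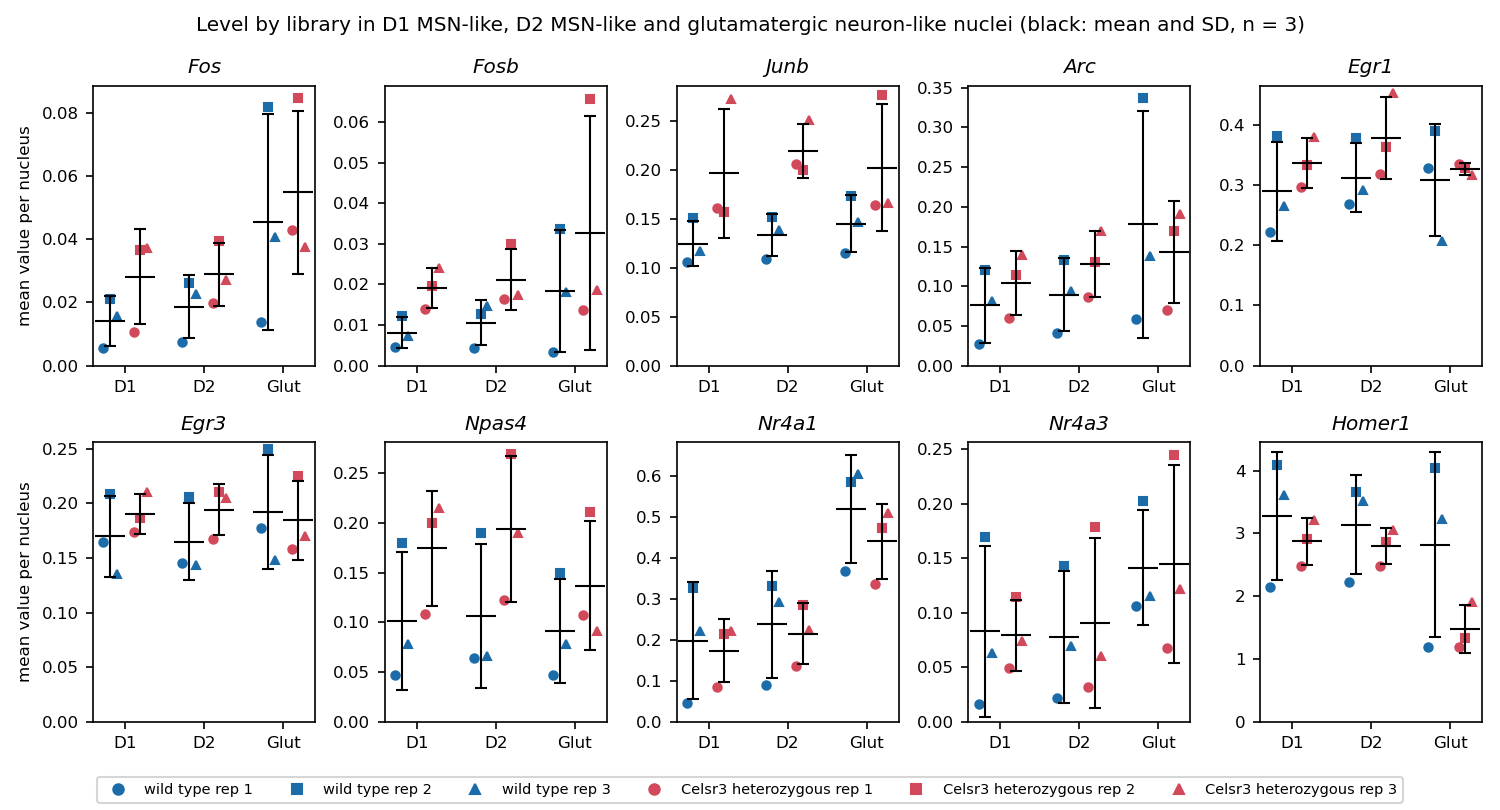
Mean value per nucleus (y axes, each from 0) of the 10 genes in D1 MSN-like, D2 MSN-like and glutamatergic neuron-like nuclei, 1 point per library, wild type in blue and Celsr3 heterozygous in red, with mean and SD of 3 in black. Junb does not overlap between the genotypes in D1 and D2, nor does Fosb, which lies below the filter on low values. Homer1 in glutamatergic nuclei reaches 4.04 and 3.22 in wild-type replicates 2 and 3 against at most 1.91 in the other 4 libraries.

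Homer1 in glutamatergic neuron-like nuclei split the libraries in another way. Its level was 1.18, 4.04 and 3.22 in the wild-type and 1.198, 1.34 and 1.91 in the heterozygous libraries, so wild-type replicate 1 stood with the heterozygotes. The same split was seen within clusters 18 and 22. Homer1 was at 1.21, 5.20 and 5.38, then 1.09, 1.25 and 1.98, in cluster 18, and at 1.10, 2.78 and 2.77, then 1.21, 1.43 and 1.47, in cluster 22. Levels of other clusters of the class, such as cluster 13, are not given here. The genotype change was -0.77 ± 0.41 (limma, adjusted p = 0.927), -1.31 without wild-type replicate 1 (adjusted p = 0.395) and -0.43 without wild-type replicate 2 (adjusted p = 0.999972). In D1 nuclei wild-type replicates 2 and 3 were also highest, at 4.08 and 3.61, but there the heterozygous libraries, at 2.48 to 3.22, lay closer. In microglia-like nuclei Homer1 was at 1.12 to 1.199 in all 6 libraries. Rare genes stood at 2 or 3 and never at 1 in 54.6% of those nuclei, and the part of this scaling in the narrow range was not tested. The numbers of glutamatergic nuclei were 574, 208 and 936, then 1543, 213 and 535, and their part in this split was not tested.

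The related lists gave no call by genotype either. Of other transcription factors 0 of 13, 12 and 12 tested genes passed in all, D1 and D2 nuclei, of effectors 0 of 14, 13 and 13, of late response genes 0 of 14, 12 and 12, of upstream regulators 0 of 22 in each, of Homer1 partners 0 of 10, 9 and 9, and of heat shock and tissue handling genes 0 of 9, 8 and 8. The medians in D1 were 0.14, 0.15, 0.03, 0.11, 0.04 and 0.19, in that order, beside 0.06 over all genes. In D2 they were 0.04, 0.07, -0.05, 0.09, -0.02 and 0.18, beside 0.04 over all genes, with 3 of 12 late response genes and 4 of 9 Homer1 partners above 0.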

How the data were processed

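Nuclei of 3 wild-type and 3 Celsr3 heterozygous striata were profiled with 10x Genomics 3′ v3.1 chemistry, per the labels' protocols. Per the submitters' processing notes, Cell Ranger, Seurat 4.1 and the mm10 (GRCm38) build were used; the steps, annotation and use of strand are not given in the sources used here. The values the authors deposited, 24841 genes by 48834 nuclei, were treated as a score: totals per nucleus ranged only from 4523 to 10638 (coefficient of variation 10.7%), and in 10.0% of nuclei at least 10 of 13152 rare genes stood at 2 or 3 and none at 1, as depth-corrected, rounded molecule numbers would. The original depth is unknown, so no counting intervals were computed and no count model was used. Replicates are labelled as biological replicates.

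Likely doublets (score above 0.25, or clusters with over 40% of them; 1.64% of nuclei) were left out. Clusters (2000 variable genes, after leaving out all 111 members and listed related genes, of which 9 would have ranked among them, 30 components, 15 neighbours, Leiden at resolution 1.0; scanpy 1.11.5, igraph 0.11.9, Python 3.11) were named from 162 marker entries; 10 of 61 clusters, 5353 nuclei, stayed unnamed. Mean values per nucleus, library and class were tested as log2(mean + 0.01) in R 4.3.3 by limma 3.58.1, with an empirical Bayes prior that follows the mean level, for genes with a mean of at least 0.02 and a sum averaging at least 30 per library, with Benjamini-Hochberg adjustment over all genes and a threshold of 0.05; this scale understates changes of low genes. Level comparisons between classes had the library as a block. Tested on simulated D1 data (13466 genes), the fit recovered 93% of 2-fold and 100% of 4-fold changes. The simulation gave every gene the same spread between libraries, beside counting noise, and not the spread of the members. In D1 nuclei the fitted SE was 0.60 for Nr4a1 and 0.40 for Npas4. These percentages therefore do not say which changes of the members could be found. Shares were compared with exact permutation tests. For co-detection, expected numbers were computed within library and 5 bins of genes per nucleus. Alternatives changed the pseudocount, filter, scaling, weights, replicate block, doublets, class mix, thresholds and libraries. All 10 members were named, with the 3 most similar genes of each (1 of those of Nr4a1 is not reported here) and the 10 genes of highest ratio in co-detecting nuclei; members and lists were chosen with earlier results of these data known.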

Additional observations from a re-analysis of the deposited data

How the results depend on the processing

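Over the alternatives, 0 members were called by genotype in all nuclei, in D1 nuclei and in every other class tested, except that array weights called 1 in D2 nuclei (Junb, 0.58). The excess of D2 over D1 nuclei with 3 or more of 9 genes was 0.61 percentage points for 4 or more genes (3 of 6 libraries, exact p = 0.4375) and 0.90 after thinning, but 2.94 for 2 or more genes (6 of 6 libraries, exact p = 0.03125), and 1.58 to 1.99 with each library left out, where p cannot go below 0.0625. These causes were not tested, apart from the smaller number of libraries. Changes near 0 turned sign: Nr4a1 by genotype in D1 to -0.0301 with a pseudocount of 0.1 and -0.21 with array weights, Nr4a1 in D2 to 0.0039 with a pseudocount of 0.001, and D1 against D2, Homer1 to -0.0135 and Egr3 to -0.0453 with size factors and Egr3 to -0.0044 with array weights. With each library left out, the genotype change in D1 ranged from -0.42 to 0.95 for Nr4a3, from -0.43 to 0.0385 for Homer1, from -0.0029 to 0.91 for Arc and from -0.71 to 0.59 for Nr4a1. In D2 it ranged from -0.43 to 0.70 for Nr4a3 and from -0.57 to 0.32 for Nr4a1 and, below 0 throughout, from -0.36 to -0.0082 for Homer1. The difference of D1 from D2 ranged from -0.10 to 0.12 for Nr4a3 and from -0.0272 to 0.0399 for Egr3, and the members' median by genotype in all nuclei from -0.11 to 0.35. Members called between neuronal and non-neuronal classes numbered 7 to 9 with each library left out and 6 with size factors.

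The labels do not say whether same-numbered samples were paired, and their deviations do not settle it. These correlated at 0.267, 0.0172 and 0.182 in D1 and at 0.258, 0.0467 and 0.178 in D2. In all nuclei they correlated at -0.0405, 0.142 and -0.0702. Not every pair was over 0.1 in any of the 3. In D1, D2 and all nuclei, 3 of 6, 4 of 6 and 2 of 6 samples correlated best with their own number. The main fits treated the samples as unpaired. With the replicate number as a block, 0 members were called in all, D1 and D2 nuclei, and 0, 3 and 9 genes in place of 0, 3 and 2. The original depth per nucleus is unknown. No member passed the filter in cholinergic interneuron-like nuclei, so no genotype value is given there.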

Other observations

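In 1 cluster of 1259 nuclei left unnamed, with Pmch and Atp1b1 among its leading genes and a median of 1721 genes per nucleus, Egr1 had a level of 0.295, 0.802 and 0.619 in the wild-type and 0.621, 0.347 and 0.526 in the heterozygous libraries. The share of nuclei above 0 for Egr1 was 21.9% in the cluster and 25.9% in D1. Rare genes stood at 2 or 3 and never at 1 in 89.5% of the nuclei of this cluster, against 0.342% in D1, so its levels are not set against those of D1. Homer1 was at 2.04 ± 0.23 (SD, n = 6 libraries) there, on the same scale, and above 0 in 96.9% of nuclei.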
